A study of Mus musculus with 40 samples.

Results

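Hearts that had expressed *Il11* in cardiomyocytes for 6 weeks were compared with control hearts, in 14 of the 40 libraries of the series. These were every library whose labels agreed on the control group or on the 6-week group: 3 control and 3 CM-Il11-Tg libraries from males, and 4 control and 4 CM-Il11-Tg libraries from females, with 1 mouse in each library. CM-Il11-Tg mice were heterozygous for α-MHC-MerCreMer (MCM), a tamoxifen-activated Cre driven by a promoter of cardiomyocytes, and for *Rosa26-Il11*, a murine *Il11* transgene behind a stop cassette flanked by loxP sites. Controls, labelled WT, were littermates of the same age that carried MCM without *Rosa26-Il11*, so both groups held the Cre. Both groups received tamoxifen at 20 mg/kg on 5 consecutive days from 8 weeks of age. The labels place controls at baseline, and when after tamoxifen they were taken is not given in the sources used here, so genotype and time since tamoxifen cannot be told apart where these differed. The parental lines were C57BL/6N for *Rosa26-Il11* and C57BL6/J for MCM. The mRNA came from heart in the labels and from ventricle in the study's text.

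IL11 is a cytokine of the IL6 family. It binds IL11RA on the cell surface, pairs with the shared receptor chain gp130 and activates Janus kinases and the transcription factor STAT3, and in the heart it is best known for its actions on fibroblasts. Adult cardiomyocytes live mainly from fatty acid oxidation in densely packed mitochondria, and the abundance of their mRNAs for contraction, excitation and energy supply is a usual readout of the state of the myocardium.

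The values are CPM, gene counts relative to a library size that the authors adjusted for each library, and a log2 change is the difference in mean log2(CPM + 0.5) between 6 weeks and control. Each sex was tested within its own table, and the changes of the sexes were then compared in a joint fit. The 14 libraries held 20806844 to 65333832 reads on listed genes. *Il11* stood at 485, 407 and 819 CPM in the male CM-Il11-Tg libraries and at 328 to 590 CPM in the female ones, against at most 0.166 CPM in any control. Reads of the transgene and of the endogenous gene cannot be told apart in these values.

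Some libraries stood apart from their groups. Male 6-week replicate 4 held 15970 CPM in summed erythroid markers, where the other male 6-week libraries held 2370 and 2625 CPM, and a chi-square of its counts against theirs came to 277 and 158 per gene, against 43.9 between those others. Female 6-week replicate 2 held 346 CPM of *Myl7* and 383 CPM of *Myl4*, myosin light chains of atrial muscle, which lay at or below 0.527 and 3.01 CPM in every other female library compared here. Mesothelial markers summed to 5.9 to 11.3 CPM in all controls, to 17.3 to 101 CPM in female 6-week hearts, and to 33.4, 22.2 and 6.95 CPM in male replicates 1, 3 and 4. Reads on the mitochondrial genome made up 25.9% to 28.5% of a library in male controls and 18.3%, 22.5% and 26.5% in male 6-week replicates 1, 3 and 4. In females they made up 28.7% to 31.7% in controls and 15.8% to 22.5% at 6 weeks, with no overlap. The part of these differences in the results was not tested.

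**Figure D1:**
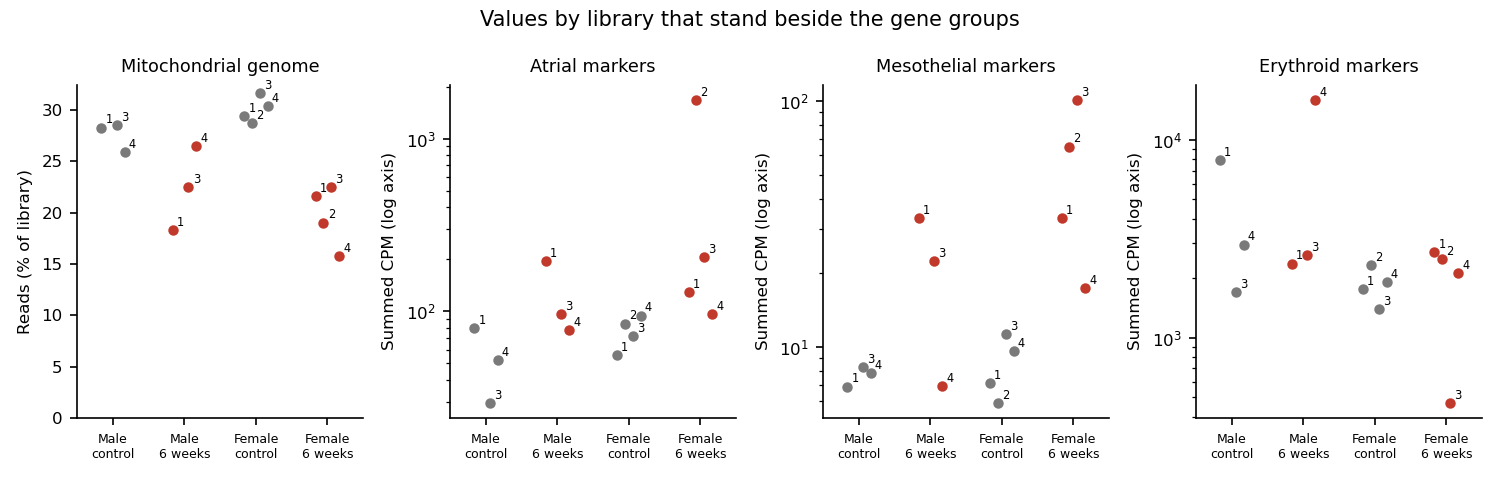
Values for each library (points, numbered by replicate) in the 4 groups: share of reads on the mitochondrial genome (linear axis) and summed CPM of atrial, mesothelial and erythroid markers (log axes). Female 6-week replicate 2 lies far above the rest in atrial markers at 1679 CPM, male 6-week replicate 4 is highest in erythroid markers at 15970 CPM, and female 6-week mitochondrial shares lie below all female controls.

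In males, 2742 of 16931 genes tested rose with an adjusted p under 0.05 in limma (16.2%) and 1838 fell (10.9%). In females 3678 of 16956 rose (21.7%) and 3567 fell (21%). With a log2 change of at least 1 as well, the counts were 1181 higher (6.98%) and 258 lower (1.52%) in males, and 1334 higher (7.87%) and 652 lower (3.85%) in females. The falls were therefore many but mostly small. Of 16627 genes tested in both sexes, 2148 rose in both (12.9%) and 1149 fell in both (6.91%) at an adjusted p under 0.05, while 10 passed in opposite directions. With the minimum change, 946 rose in both (5.69%) and 146 fell in both (0.878%), which made up 76.1% of the male and 56% of the female calls among these genes. Without the 2 libraries that stand apart, 961 rose and 165 fell, and 987 genes were shared with the full comparison.

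The direction of small falls depended on how libraries were scaled. The authors' scaling left the median log2 change of all genes at −0.01 in males and −0.02 in females. Unscaled CPM, the reads of a gene over the library total without the scaling factors, moved it to 0.16 and 0.34, and the calls in both sexes then split into 1271 higher and 66 lower. Falls are reported below on the authors' scaling, with the counts from unscaled CPM beside the groups they alter.

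**Figure D2:**
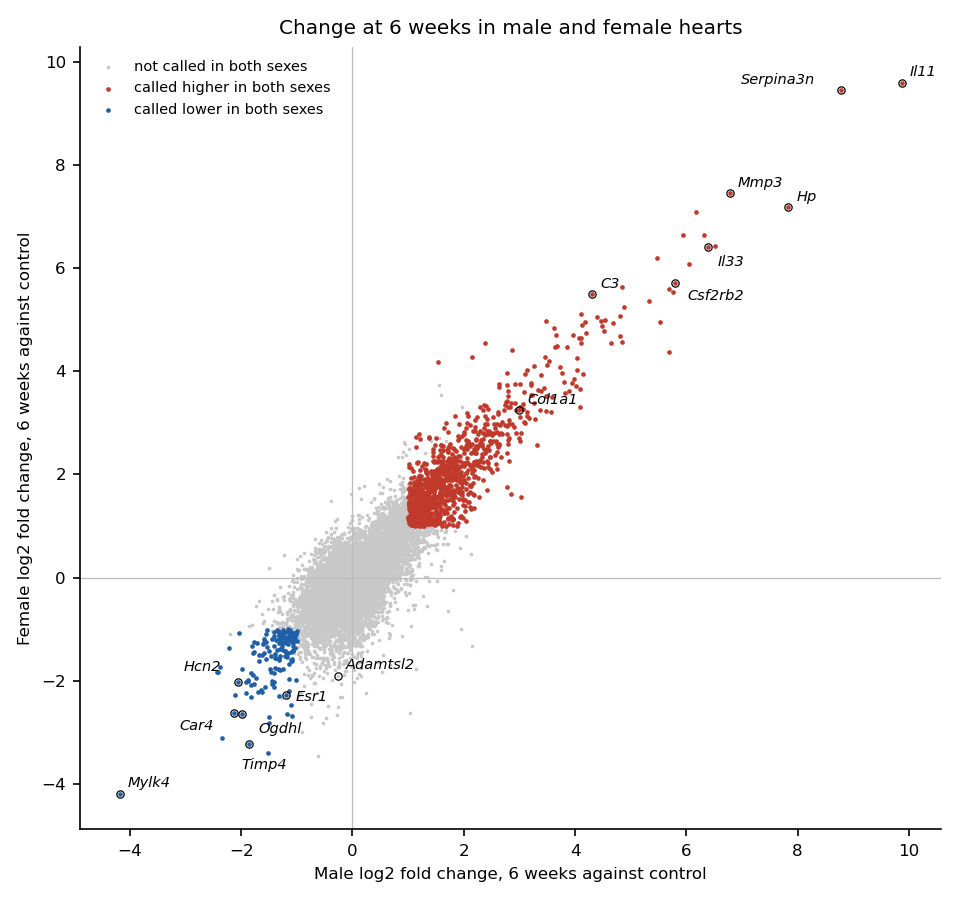
Log2 change at 6 weeks against control in males (x axis) and females (y axis) for the 16627 genes tested in both, with 946 genes called higher in both sexes in red, 146 called lower in both in blue and named genes circled. *Mylk4* lies alone at the lower end at −4.19 in each sex, and *Adamtsl2* lies near 0 in males (−0.27) and low in females (−1.90).

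The largest fall was in *Mylk4* (chromosome 13, 32884810 to 32968052, GRCm39), which encodes a myosin light chain kinase of heart muscle. It read 156, 220 and 198 CPM in male controls and 6.19, 10.1 and 15.6 CPM at 6 weeks. In females the controls read 245, 253, 178 and 176 CPM and the 6-week hearts 8.36, 15.5, 8.25 and 13.9 CPM. Every 6-week library lay far below every control of its sex, and the means were 18-fold lower in males and 18.5-fold lower in females. The log2 change was −4.19 in males (standard error 0.30, adjusted p = 4.52e-09, limma) and −4.19 in females (standard error 0.51, adjusted p = 1.61e-06, limma). An exact permutation test, two-sided, gave p = 0.1 for the 3 against 3 male libraries and p = 0.0286 for the 4 against 4 female ones, each the smallest that such groups allow. The rule that named *Mylk4* required groups without overlap in these same libraries, which fixes both permutation values in advance, so they add no support.

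Ion channel subunits were among the next largest falls. *Kcnip2* (chromosome 19, 45780278 to 45804836) encodes KChIP2, the partner of the Kv4 channels that carry the transient outward potassium current. It read 168, 190 and 172 CPM in male controls against 45.5, 42.4 and 63.1 CPM at 6 weeks, and 171, 202, 177 and 172 CPM in female controls against 38.9, 43.7, 38 and 50 CPM. The groups were widely separated in each sex, with log2 changes of −1.82 and −2.07. *Hcn2*, a pacemaker channel, read 49.9, 43.7 and 52.2 CPM in male controls against 7.87, 11.3 and 15.9 CPM, and 29 to 40.8 CPM in female controls against 7.53 to 9.37 CPM. It was 4.16-fold lower in males and 4.25-fold lower in females.

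Falls of similar size were found in genes of metabolism and matrix. *Ogdhl*, an isoform of a subunit of the 2-oxoglutarate dehydrogenase complex, read 184, 200 and 184 CPM in male controls and 25.3, 70.7 and 58.9 CPM at 6 weeks, and in females 126, 155, 137 and 127 CPM against 22.3, 15.2, 25.7 and 23.7 CPM. *Car4*, a carbonic anhydrase of capillary walls, was 4.61-fold lower in males (adjusted p = 1.77e-07, limma) and 6.76-fold lower in females (adjusted p = 3.85e-11, limma). *Timp4*, a metalloproteinase inhibitor abundant in heart, read 58.8, 39.8 and 37.1 CPM in male controls against 3.74, 19 and 22.5 CPM, and 46.3 to 68.4 CPM in female controls against 2.92 to 7.95 CPM. Male 6-week replicate 1 was much lower than its fellows, and no 6-week library reached the controls in either sex. Among the other large falls were *Whrn*, a scaffold protein (−1.92 in males and −2.03 in females), *Klhl33* (−1.83 and −1.85), *Abca8a*, an ABC transporter (−1.79 and −1.90), *Clcn1*, a chloride channel of muscle (−1.92 and −2.24), and *Col4a4*, a basement membrane collagen (−1.88 in males). Each of the 15 genes named by size of fall had groups that did not overlap, which the rule required.

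**Figure D3:**
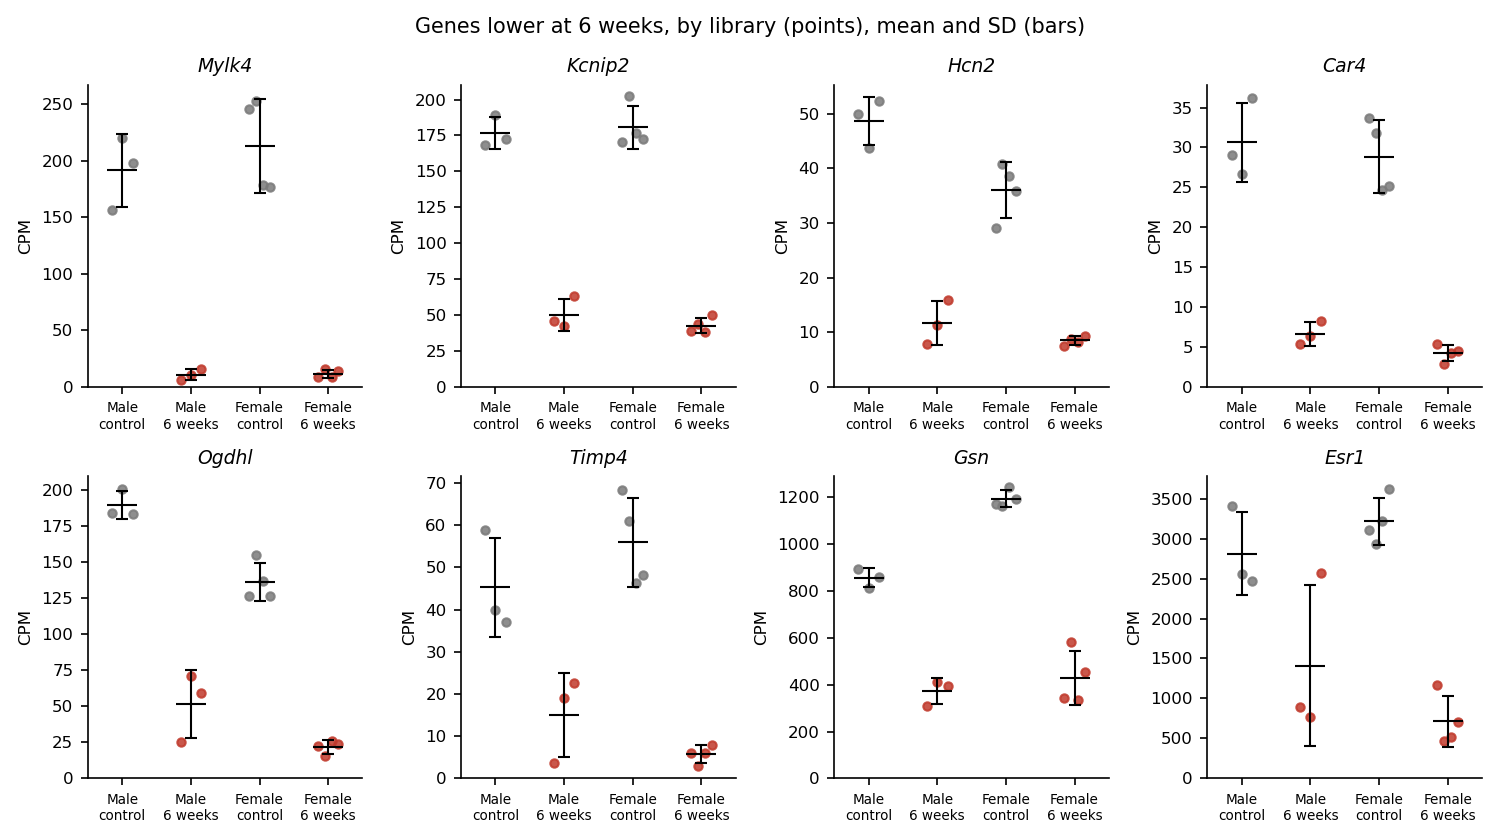
CPM of 8 genes in each library (points) of the male and female control (grey) and 6-week (red) groups, with mean and SD as bars and linear axes from 0. The groups are apart in 7 genes, and in *Esr1* male 6-week replicate 4, at 2567 CPM, lies among the male controls.

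Genes of the contractile apparatus fell in part, where 10.9% of all genes tested fell in males and 21% in females. Of 21 genes of the adult sarcomere and Z-disc, 8 fell and 1 rose in males (median log2 change −0.44, against −0.01 for all genes), and 12 fell in females (median −0.46, against −0.02), with 7 lower in both sexes. Among them were *Mylk4*, the giant spring protein *Ttn*, the M-band proteins *Myom1* and *Myom2*, and the Z-disc proteins *Csrp3* and *Myoz2*. *Myom2* read 907, 1161 and 693 CPM in male controls against 461, 540 and 243 CPM, and 584 to 1069 CPM in female controls against 319 to 470 CPM. *Ttn* read 3034, 4260 and 3196 CPM against 1987, 2621 and 2495 CPM in males, and its male call (−0.56, adjusted p = 0.0236, limma) was lost in a fit of the 2 groups alone (adjusted p = 0.115) and without male 6-week replicate 1 (adjusted p = 0.109). It was also lost on unscaled CPM (adjusted p = 0.164) and without male control replicate 3 (adjusted p = 0.144, limma). *Myh6*, the fast myosin heavy chain of the adult mouse heart, had a log2 change of −0.86 in males (adjusted p = 0.05, passing under 6 alternatives at 0.00132 to 0.0464) and of −0.47 in females, where the groups overlapped (adjusted p = 0.145, limma). In a fit of the 2 groups alone 3 members fell in males. From unscaled CPM 4 members fell and 1 rose in each sex, and the medians relative to all genes were −0.41 and −0.40.

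Genes of excitation and calcium handling also fell in part. Among all genes tested, 16.2% rose and 10.9% fell in males, and 21.7% rose and 21% fell in females. Of 21 channel genes, 12 fell and 2 rose in males and 11 fell and 3 rose in females. Those lower in both included *Hcn2*, *Kcnip2*, *Kcnd3*, *Kcnj11*, *Kcnj12*, *Kcnv2* and *Scn4a*, and *Kcnq1*, a subunit of a repolarising potassium channel, was higher in both (1.15 and 0.84). On unscaled CPM 8 channel genes fell in males and 5 in females, and 3 rose in each sex. Of 17 genes of calcium handling, 8 fell in each sex and 1 rose in females, with *Ryr2*, *Casq1*, *Hrc* and *Jph1* lower in both. *Ryr2*, the calcium release channel of the sarcoplasmic reticulum, read 1263, 1813 and 1410 CPM in male controls against 670, 962 and 772 CPM, and 834, 987, 966 and 774 CPM in female controls against 582, 449, 744 and 549 CPM. The calcium pump gene *Atp2a2* had a log2 change of −0.51 in males (adjusted p = 0.123, or 0.0136 with DESeq2) and of −0.17 in females (adjusted p = 0.397, limma). Without female 6-week replicate 2 the female calcium count was 5, and without male control replicate 3 the male count was 5. On unscaled CPM the male calcium list had 3 lower and 1 higher, the female list turned to 2 higher and 1 lower, and the female call of *Ryr2* was lost (adjusted p = 0.206, limma).

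Of 12 genes of the intercalated disc, the junction between cardiomyocytes, 6 fell in males, and 5 fell and 2 rose in females. The desmosomal cadherins *Dsg2* and *Dsc2*, α-catenin *Ctnna1* and the tight junction scaffold *Tjp1* were lower in both sexes. *Gja1*, which encodes the gap junction protein connexin 43, read 274, 337 and 426 CPM in male controls against 578, 330 and 328 CPM at 6 weeks, and 198, 199, 372 and 260 CPM in female controls against 411, 372, 335 and 435 CPM. It passed the test only in females (0.63, adjusted p = 0.00389), where the groups overlapped, and the male change was 0.22 (adjusted p = 0.416, limma). Without male control replicate 3 the male count was 3, and the female list turned to 4 higher and 0 lower on unscaled CPM. Of 16 cardiac transcription factors, 4 fell in males and 3 in females, where 10.9% and 21% of all genes tested fell. *Hopx* and *Esrrb* were lower in both. *Hopx* had log2 changes of −1.19 and −1.27. The male count was 7 without male 6-week replicate 4 and 2 without male control replicate 3, and on unscaled CPM the male list had 2 lower and the female list turned to 5 higher and 1 lower.

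Many genes of energy metabolism fell. Of 29 genes of fatty acid uptake and oxidation, 15 fell and 1 rose in males (median −0.53) and 19 fell and 1 rose in females (median −0.59), and 13 were lower in both sexes. *Hadha*, the α subunit of the mitochondrial trifunctional protein, read 1119, 1331 and 1109 CPM in male controls against 782, 724 and 689 CPM, and 1165, 1119, 1085 and 1000 CPM in female controls against 636, 608, 641 and 733 CPM. All 6-week libraries lay below all controls. *Acadm*, a medium-chain acyl-CoA dehydrogenase, had log2 changes of −0.99 and −0.79, and *Acsl1*, which activates long-chain fatty acids, of −0.67 and −0.60. The gene that rose was *Angptl4*, a secreted inhibitor of lipoprotein lipase, at 2.48 and 2.34. The fatty acid transporter *Cd36* had a log2 change of −0.25 (adjusted p = 0.154) and −0.31 (adjusted p = 0.0643, limma). *Ppargc1a*, a coactivator of mitochondrial genes, had a log2 change of −0.71 (adjusted p = 0.125) and −1.06 (adjusted p = 0.0603, limma), and the female change passed without control replicate 3 or 4 or 6-week replicate 1 and with a replicate block (adjusted p = 0.0116 to 0.0447). Female values ran from 58.8 to 238 CPM in controls and from 32.8 to 116 CPM at 6 weeks. The fatty acid counts on unscaled CPM were 7 lower and 1 higher in males and 8 lower and 2 higher in females, with medians of −0.50 and −0.53 relative to all genes.

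Of 29 nuclear genes of the respiratory chain, 9 fell in males (median −0.31) and all 29 fell in females (median −0.50), and none rose in either sex. The 9 male falls were also female falls and included *Ndufs1* of complex I, *Sdha* of complex II, *Uqcrc2* of complex III and cytochrome c, *Cycs*. Of the 13 protein-coding genes of the mitochondrial genome, all 13 fell in females (median −1.07) and 0 passed in males (median −0.50). *mt-Co1* read 49310, 63770 and 81000 CPM in male 6-week replicates 1, 3 and 4 against 76510 to 95220 CPM in controls, so replicate 4 lay within the control range. In females it read 57860, 53610, 61890 and 41460 CPM against 95290 to 105900 CPM, with no overlap. The mitochondrial ribosomal RNA *mt-Rnr2*, was 1.95-fold lower in males and 2.38-fold lower in females, the largest fall in CPM of all genes that passed in both sexes. The nuclear list on unscaled CPM gave 1 lower and 1 higher in males and 4 lower in females, while the mitochondrial genome still had 13 lower in females.

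Genes of other energy pathways fell in part, and genes of glycolysis moved both ways. Of 14 genes of phosphocreatine, branched-chain amino acid and ketone metabolism, 9 fell and 1 rose in males and 11 fell and 1 rose in females, with 9 lower in both. Unscaled CPM gave a different split, in which 3 fell and 2 rose in males, and 3 fell and 3 rose in females. *Ckm*, muscle creatine kinase, read 1518, 1456 and 1301 CPM in male controls against 678, 795 and 1284 CPM, so male replicate 4 came close to the controls, and 1329 to 1460 CPM in female controls against 612 to 743 CPM. Its male call was lost without male 6-week replicate 1 (adjusted p = 0.0813) and in a fit of the 2 groups alone (adjusted p = 0.0822, limma). *Slc25a4*, the adenine nucleotide carrier, had a log2 change of −0.50 in males (adjusted p = 0.0384) and −0.59 in females, and leaving out male control replicate 1, 3 or 4 or male 6-week replicate 4 ended the male call (adjusted p = 0.0563 to 0.138, limma). A fit of the 2 groups alone ended it too (adjusted p = 0.123, limma). On unscaled CPM the *Slc25a4* calls of both sexes were lost (adjusted p = 0.327 in males and 0.213 in females, limma). Of 22 genes of glucose uptake and glycolysis, 4 rose and 6 fell in males and 5 rose and 11 fell in females. Among all genes tested, 16.2% rose and 10.9% fell in males, and 21.7% rose and 21% fell in females. The share of glycolysis genes that rose was thus near that of all genes in each sex. The muscle forms *Pfkm* and *Hk2* and the heart form *Ldhb* were lower in both, and *Ldha*, *Slc2a1*, *Pfkfb3* and *Eno1* were higher in both. On unscaled CPM the female glycolysis list turned to 9 higher and 4 lower, and without male control replicate 3 the male list was 4 higher and 2 lower.

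*Esr1*, the estrogen receptor α gene (chromosome 10, 4561593 to 4955626), had the third largest fall in CPM of the genes that passed in both sexes. MerCreMer contains the hormone-binding part of the mouse receptor, so reads of the transgene, which both groups carry under the α-MHC promoter, can be counted on *Esr1*. It read 3411, 2551 and 2473 CPM in male controls against 890, 772 and 2567 CPM at 6 weeks, and 3102, 2929, 3219 and 3622 CPM in female controls against 1169, 463, 517 and 700 CPM. The female groups were far apart (−2.27, adjusted p = 4.51e-05, limma), and male 6-week replicate 4 stood among the controls (−1.20, adjusted p = 0.0257). The male call was lost with edgeR (adjusted p = 0.0604) and DESeq2 (adjusted p = 0.0576) on the recovered reads, and without any of male control replicates 1 and 3 and male 6-week replicates 1 and 3 (adjusted p = 0.054 to 0.117, limma). It was also lost in a fit of the 2 groups alone (adjusted p = 0.072, limma). Endogenous and transgenic reads cannot be told apart in these values.

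In bulk tissue, fewer cells of a type and less RNA per cell cannot be told apart, and this holds for the cell markers that follow. Of 15 general endothelial markers, 6 fell in males and 10 in females, and none rose. *Cdh5*, VE-cadherin, read 252, 236 and 299 CPM in male controls against 162, 141 and 209 CPM, and 194, 203, 263 and 225 CPM in female controls against 131, 133, 186 and 118 CPM. *Kdr*, the VEGF receptor 2, had log2 changes of −1.19 and −0.80. The calls of *Cdh5* in males and females (adjusted p = 0.0725 and 0.106) and of *Kdr* in females (adjusted p = 0.0647, limma) were lost on unscaled CPM, and that of *Cdh5* in males also without male control replicate 4 or male 6-week replicate 3 (adjusted p = 0.0649 and 0.0625). *Pecam1* had log2 changes of −0.20 and −0.14 with overlapping groups. The male count was 3 without male control replicate 4 or male 6-week replicate 3, and unscaled CPM gave 2 lower and 1 higher in males and 3 lower and 1 higher in females, with medians of −0.38 and −0.44 relative to all genes.

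The falls included genes of capillaries, and genes of venules and inflamed endothelium rose. Of 12 capillary markers, 6 fell and 1 rose in males and 7 fell and 1 rose in females. *Gpihbp1*, which holds lipoprotein lipase on the capillary wall, was 2.4-fold lower in females (82.6 to 95 CPM against 32.2 to 43 CPM, adjusted p = 4.88e-09, limma) and 1.41-fold lower in males (adjusted p = 0.0451), where the call was lost under 9 of the alternatives, among them edgeR (adjusted p = 0.0594). *Aqp7*, *Fabp4*, *Btnl9* and *Car4* were lower in both sexes as well. The male count of falls was 3 without male control replicate 4 and 3 with unscaled CPM. Of 10 markers of venous or activated endothelium, 8 rose and 0 fell in each sex (median 2.03 and 2.29). *Selp*, the P-selectin that captures leukocytes, read 0.187, 0.492 and 0.423 CPM in male controls against 14.7, 12.2 and 16.2 CPM, and 0.215, 0.0968, 0.35 and 0.222 CPM in female controls against 18.5, 31.8, 30.1 and 19.7 CPM. *Plvap*, a protein of endothelial diaphragms, was 12.8-fold and 10.4-fold higher, and *Vcam1*, an adhesion molecule, 5.45-fold and 5.9-fold. Among 11 markers of pericytes and smooth muscle, *Rgs5* and *Kcnj8* fell in both sexes and 0 rose, with 2 lower in males, or 5 without male 6-week replicate 4, and 3 lower in females, or 5 without female 6-week replicate 3. Unscaled CPM left 1 lower in males, and the female list turned to 2 higher and 1 lower. On the authors' scaling, 10.9% of all genes tested fell in males and 21% in females.

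**Figure D4:**
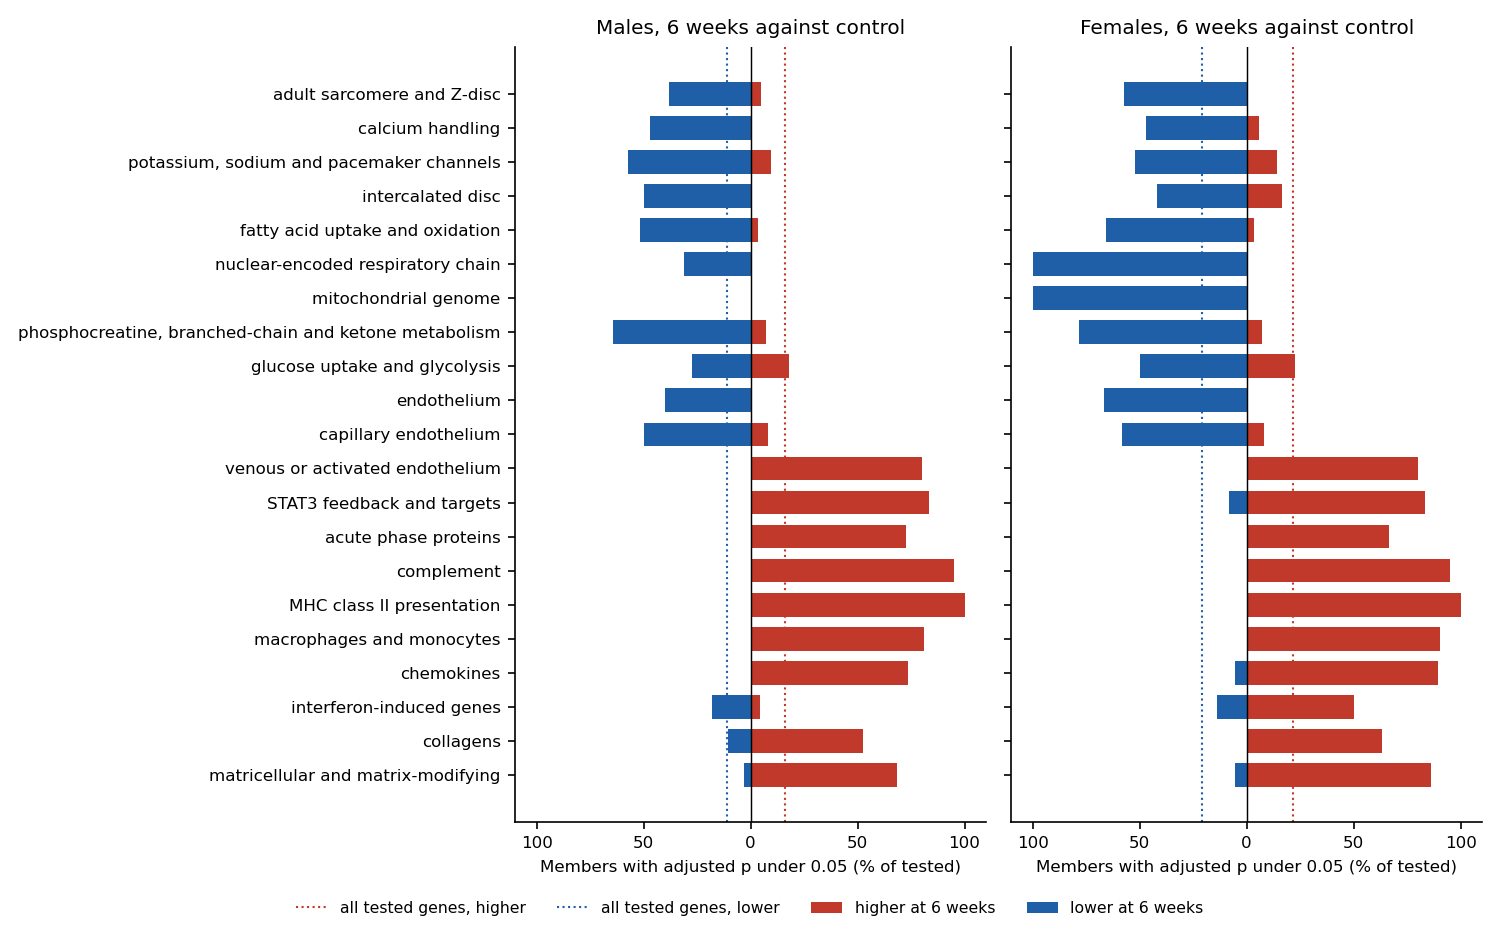
Share of the tested members of each gene list with an adjusted p under 0.05, higher (red, right) and lower (blue, left) at 6 weeks, in males and females, with the shares of all tested genes as dotted lines (16.2% and 10.9% in males, 21.7% and 21% in females). Lists of contraction and energy supply extend to the left, and complement (20 of 21 higher in each sex) and MHC class II genes (10 of 10) to the right.

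Genes of IL11 signalling rose in part, and most STAT3 feedback genes rose. Of 14 genes of the IL-11 receptor and the JAK-STAT pathway, 5 rose and 1 fell in males, and 7 rose and 2 fell in females. *Il11ra1*, *Il6st* (gp130), *Il6ra*, *Osmr* and *Stat3* were higher in both. In a fit of the 2 groups alone 3 rose in males, and with unscaled CPM 11 rose in females. The share of all genes tested that rose was 16.2% in males and 21.7% in females on the authors' scaling. *Stat3* was 1.9-fold and 1.87-fold higher. Of 12 STAT3 feedback and target genes, 10 rose in each sex and 1 fell in females (median 1.66 and 1.71). *Socs3*, which inhibits signalling from gp130, read 2.85, 2.69 and 2.9 CPM in male controls against 91.4, 65 and 94.3 CPM, and 3.01, 3.68, 2.4 and 2.99 CPM in female controls against 77.7, 84, 83 and 82.1 CPM, and the female 6-week hearts were nearly alike.

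The letters TTCNNNGAA, which many STAT proteins bind and which read the same on both strands, occur in the 250 bases upstream of the start site in 7.02% of the 32851 promoters in the RefSeq table (GRCm38.p6) and for 8.13% of its 27025 genes. Of 10 STAT3 feedback and target genes with a promoter there, *Socs3* and *Fgl2* hold it, and of 8 of the 12 genes with the largest rise, *Csf2rb2* does. The letters CTA and TAG with any 4 bases between them, a core of sites of the muscle factor MEF2 and also alike on both strands, occur in 3.2% of promoters and for 3.7% of genes. They were found in 4 of 17 sarcomere genes (*Ldb3*, *Mybpc3*, *Myoz2* and *Ttn*) and in 3 of the 15 genes with the largest fall (*Abca8a*, *Clcn1* and *Klhl33*). A match is a description of letters and not of binding. The windows of *Socs3* and *Csf2rb2*, which rose, and of *Ttn* and *Klhl33*, which fell, are given 5′ to 3′ to show where the letters lie, in capitals. Each matches GRCm39 once, on the minus strand, at chr11:117860193-117860442, chr15:78189922-78190171, chr2:76812892-76813141 and chr14:51134941-51135190, and the letters end 145, 6, 156 and 40 bases before the start site, in that order.
Socs3: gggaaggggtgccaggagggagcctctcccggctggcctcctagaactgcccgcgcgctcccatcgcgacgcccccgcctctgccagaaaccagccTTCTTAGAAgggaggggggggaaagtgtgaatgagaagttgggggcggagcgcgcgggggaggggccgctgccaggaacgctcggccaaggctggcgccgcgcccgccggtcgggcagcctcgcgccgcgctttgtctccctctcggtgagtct
Csf2rb2: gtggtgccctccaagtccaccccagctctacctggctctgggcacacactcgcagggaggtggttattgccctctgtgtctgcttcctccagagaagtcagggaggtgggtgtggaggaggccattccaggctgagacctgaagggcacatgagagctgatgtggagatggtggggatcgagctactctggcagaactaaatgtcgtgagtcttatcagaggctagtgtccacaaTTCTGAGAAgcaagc
Ttn: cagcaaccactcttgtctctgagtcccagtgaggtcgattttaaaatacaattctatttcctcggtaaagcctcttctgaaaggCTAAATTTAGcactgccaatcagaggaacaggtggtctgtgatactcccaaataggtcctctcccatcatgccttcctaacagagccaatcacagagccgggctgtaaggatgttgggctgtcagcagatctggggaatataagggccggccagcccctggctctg
Klhl33: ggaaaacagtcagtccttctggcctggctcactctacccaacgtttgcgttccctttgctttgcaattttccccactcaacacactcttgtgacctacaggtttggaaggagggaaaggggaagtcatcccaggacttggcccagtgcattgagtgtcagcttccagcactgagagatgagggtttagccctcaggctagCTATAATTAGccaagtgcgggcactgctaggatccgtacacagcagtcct

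Besides *Il11*, the largest rise was in *Serpina3n* (chromosome 12, 104372810 to 104380597), a secreted serine protease inhibitor of the acute phase. It read 3.71, 2.39 and 4.17 CPM in male controls against 1512, 1575 and 2039 CPM, and 1.46, 2.37, 3.15 and 2.38 CPM in female controls against 1606, 2378, 2253 and 1633 CPM. Close relatives lie beside it in the genome, so reads could be split among them. *Csf2rb2*, the mouse IL3 receptor β subunit, read 0.75, 1.17 and 2 CPM in male controls against 86.1, 86.3 and 119 CPM, and 0.629 to 1.45 CPM in female controls against 67.3 to 97.7 CPM, and its near-identical neighbour *Csf2rb* makes the assignment uncertain. Of the acute phase genes tested, 8 of 11 rose in males and 8 of 12 in females and 0 fell, among them *Lbp*, the lipopolysaccharide-binding protein (31.2-fold and 25.7-fold), and *Lcn2*, an iron-sequestering lipocalin (23.7-fold and 12.5-fold).

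Several of the largest rises belonged to stroma and matrix. *Il33*, an alarmin of stromal cells, read 0.412, 1.48 and 2.87 CPM in male controls against 138, 161 and 157 CPM, and 1.9 to 3.49 CPM in female controls against 207 to 349 CPM. *Mmp3*, a metalloproteinase, was 143-fold and 254-fold higher, *Comp*, a matrix glycoprotein, 104-fold and 197-fold, and *Cpxm1*, a carboxypeptidase-like protein, 63-fold and 54.2-fold. *Nfasc*, a cell adhesion molecule of nerve, read at most 0.258 CPM in any control against 40.4, 39.2 and 41.6 CPM in males and 32.4 to 63.7 CPM in females.

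**Figure D5:**
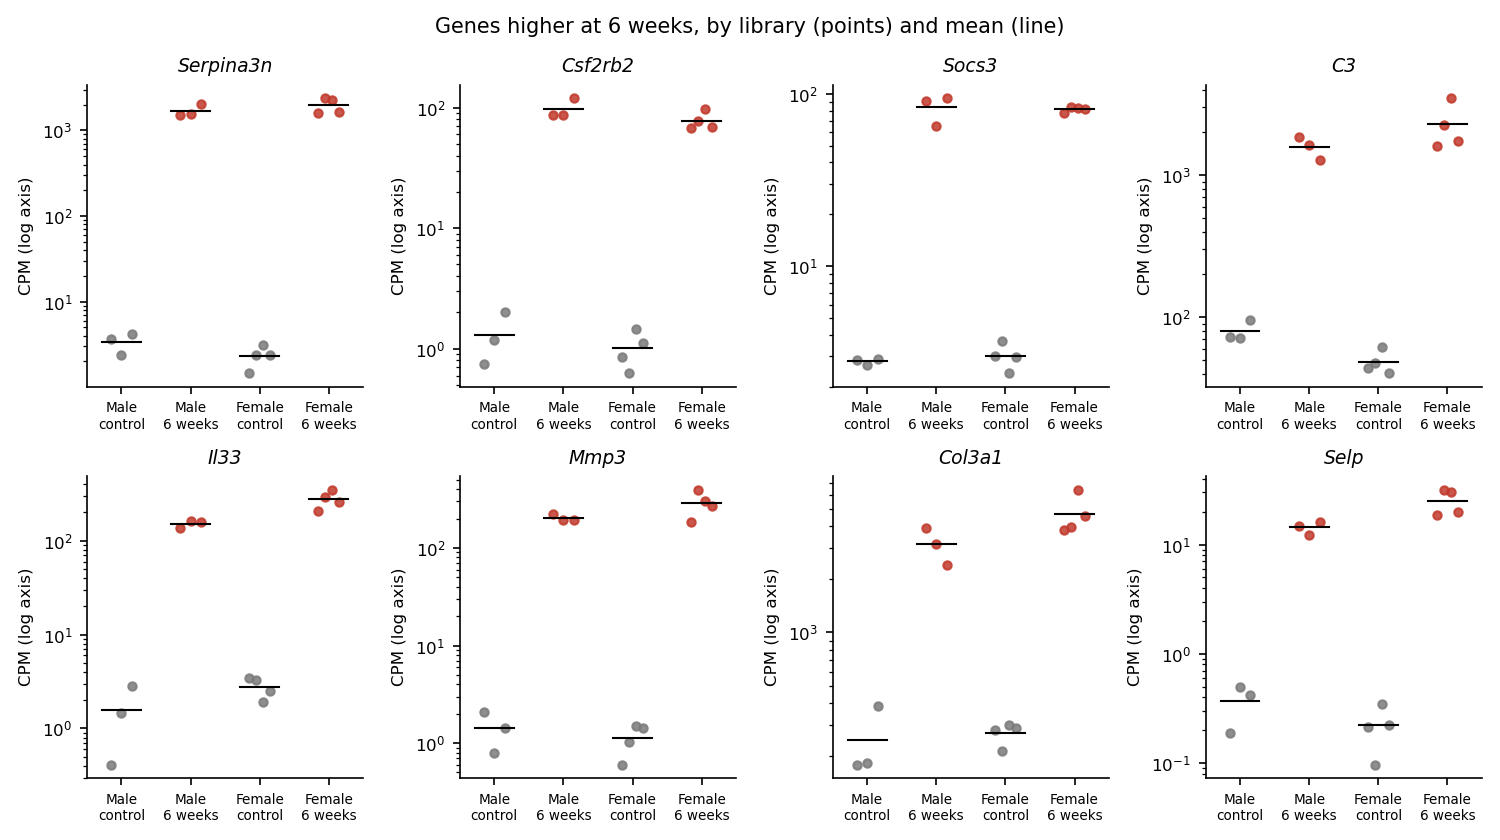
CPM of 8 genes in each library (points) of the male and female control (grey) and 6-week (red) groups on log axes, with lines at the means. Groups are apart in all 8 genes, with *Serpina3n* rising from at most 4.17 CPM to at least 1512 CPM.

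Among the genes that passed in both sexes, the largest rise in CPM was in *Col3a1*, a fibrillar collagen. It read 180, 184 and 382 CPM in male controls against 3861, 3157 and 2394 CPM, and 283, 214, 299 and 288 CPM in female controls against 3788, 3929, 6386 and 4547 CPM. Of 19 collagens, 10 rose and 2 fell in males and 12 rose in females (median 0.64 and 1.52). The 10 genes higher in both sexes included the fibrillar collagens *Col1a1* (2.99 and 3.25) and *Col5a1* (1.49 and 1.89), while the basement membrane chain *Col4a1* had a log2 change of −0.72 in males (adjusted p = 0.0116) and −0.16 in females (adjusted p = 0.436, limma). Of the matricellular and matrix-modifying genes, 24 of 35 rose and 1 fell in males and 31 of 36 rose and 2 fell in females. *Lox*, a collagen crosslinker, was 14.4-fold and 32-fold higher, *Timp1* 29.6-fold and 39.4-fold, and *Timp4* was the member that fell in both sexes.

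Fibroblast markers did not move as one. Of 12, 8 rose and 2 fell in males and 8 rose and 1 fell in females, with *Pi16*, a marker of adventitial fibroblasts, 7.99-fold and 8.74-fold higher. *Gsn*, an actin-severing protein on this list that other cells express too, read 895, 814 and 862 CPM in male controls against 308, 412 and 396 CPM, and 1171, 1165, 1245 and 1194 CPM in female controls against 344, 583, 333 and 452 CPM. Of 12 markers of activated fibroblasts, 6 rose and 1 fell in males and 9 rose in females, and *Acta2*, the smooth muscle actin, had log2 changes of −0.47 and −0.19 with overlapping groups. *Postn*, a matricellular protein of activated fibroblasts, had a log2 change of 1.71 in males (adjusted p = 0.0118) and 2.44 in females, and the male call was lost without male control replicate 1 or 3 or male 6-week replicate 3 (adjusted p = 0.0528 to 0.0633, limma). Mesothelial genes stood beside these results: 7 of 8 rose in females and 0 of 7 in males, or 3 of 7 without male 6-week replicate 4, and *Msln* read 5.44, 4.87 and 0.396 CPM in male 6-week replicates 1, 3 and 4. Their part in the matrix results was not tested.

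Classical genes of cardiomyocyte stress were mixed. Of 13 natriuretic peptide and fetal or stress genes, 3 rose in males and 5 in females, and *Ankrd1*, *Mt1* and *Mt2* were higher in both. Among all genes tested, 16.2% rose in males and 21.7% in females. The male count of this list was 5 without male control replicate 1, on unscaled CPM and with a replicate block. The female count was 3 without female 6-week replicate 2 and 6 on unscaled CPM. *Ankrd1*, a stretch-responsive nuclear protein, read 683, 557 and 725 CPM in male controls against 3806, 1967 and 1323 CPM, and 258 to 399 CPM in female controls against 1919 to 3266 CPM. *Nppa* read 60, 14.7 and 34 CPM in male controls against 172, 69.2 and 57.9 CPM, and 34.3, 60.6, 55.3 and 74.4 CPM in female controls against 104, 818, 166 and 61.8 CPM. Exact permutation tests, two-sided, gave p = 0.2 in males and p = 0.0571 in females for *Nppa*, and p = 0.3 and p = 0.0571 for *Nppb*. The female calls by limma (adjusted p = 0.0278 for *Nppa* and 0.0157 for *Nppb*) were lost without female replicate 2, the library with atrial transcripts (adjusted p = 0.135 and 0.0625), and that of *Nppa* also without female control replicate 1 (adjusted p = 0.0795). In males neither passed (adjusted p = 0.0742 and 0.0911), and both did without male control replicate 1 (adjusted p = 0.0376 and 0.0215), on unscaled CPM (adjusted p = 0.0433 and 0.0488) and with a replicate block (adjusted p = 0.0204 and 0.036, limma). The slow myosin *Myh7* had a log2 change of 0.49 (adjusted p = 0.193, or 0.0483 without male 6-week replicate 4) and 0.39 (adjusted p = 0.265, or 0.0227 on unscaled CPM), and skeletal actin *Acta1* had log2 changes of −0.87 and −0.59 with overlapping groups (adjusted p = 0.341 and 0.411, limma).

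Immune genes rose as groups. Of 21 complement genes, 20 rose in each sex (median 2.62 and 2.80). *C3*, the central component, read 72.8, 71.7 and 94.8 CPM in male controls against 1852, 1626 and 1276 CPM, and 43.7, 47.6, 61.8 and 40.3 CPM in female controls against 1611, 2269, 3480 and 1733 CPM. *C4b*, which shares most of its sequence with *C4a*, was 84.8-fold and 113-fold higher. All 10 MHC class II genes rose in each sex (median 2.36 and 3.13), including *Ciita*, their master regulator (3.03-fold and 9.22-fold), and these genes also share sequence with one another.

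Of 21 markers of macrophages and monocytes, 17 rose in males and 19 in females, and none fell. *Ccr2*, a receptor of recruited monocytes, was 9.4-fold and 20.2-fold higher, *Cd68* 4.05-fold and 4.01-fold, and *Lyve1*, a marker of resident macrophages that lymphatic vessels also express, 2.37-fold and 1.82-fold. *Timd4*, another marker of resident macrophages, read 0.6, 1.4 and 1.37 CPM in male controls against 1.24, 2.83 and 2.33 CPM and passed the test in females (0.73, adjusted p = 0.0105) but not in males (adjusted p = 0.0775), where it passed without 6-week replicate 1 (adjusted p = 0.0211) and on unscaled CPM (adjusted p = 0.0405, limma). Among chemokines, 14 of 19 rose in males, and 17 of 19 rose and 1 fell in females. *Cxcl13*, which attracts B cells, read 0 CPM in every male control against 40.7, 58.5 and 39.5 CPM, at least 407-fold higher, where the limit is 3 reads in 1 library and covers counting error only. In females it was at least 279-fold higher by the same limit.

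Interferon-induced genes rose less widely than genes of complement or MHC class II. Of 22, 1 rose and 4 fell in males (median −0.15), and 11 rose and 3 fell in females (median 0.23). Among all genes tested, 16.2% rose and 10.9% fell in males, and 21.7% rose and 21% fell in females. On unscaled CPM 14 of the 22 rose and 1 fell in females. *Mx1* rose in both sexes, while *Rsad2*, *Ifit2* and *Gbp4* fell in both. *Rsad2*, which encodes viperin, was at 25.3 to 39.3 CPM in male controls against 7.31 to 12.9 CPM, and at 21.2 to 28 CPM in female controls against 6.36 to 10.4 CPM. Every 6-week library lay below every control of its sex.

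A direct test of whether the 6-week change differed between males and females called 0 of 16627 genes (0%) at an adjusted p under 0.05 in limma. At an unadjusted p under 0.05 there were 2886, edgeR on recovered reads called 0 and DESeq2 106, and without the 2 libraries that stand apart limma called 0. The count depended on single libraries: leaving out female 6-week replicate 1 gave 406 genes, male 6-week replicate 1 gave 217, male 6-week replicate 3 gave 187 and male control replicate 4 gave 1. For *Mylk4* the male minus female difference in log2 change was 0.00, with a 95% interval from −1.31 to 1.31, and for *Col1a1* it was −0.26 (−1.04 to 0.53).

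The smallest p belonged to *Tgfbr3l*, *Adamtsl2* and *Hif3a* (adjusted p = 0.0727 for each, limma). *Adamtsl2*, a secreted protein that binds to microfibrils, read 60.1, 49.2, 43.9 and 58.4 CPM in female controls against 13, 13.4, 14.8 and 13.5 CPM at 6 weeks, and 23.9, 15.4 and 32.9 CPM in male controls against 16.8, 21.8 and 18.8 CPM. The female groups were apart and the male groups overlapped, and the difference in change was 1.64 (95% interval 1.02 to 2.25). *Hif3a*, a hypoxia-inducible factor subunit, read 4.74, 3.48, 2.2 and 2.66 CPM in female controls against 1.31, 0.515, 0.527 and 0.37 CPM, and 1.27, 0.985 and 1.3 CPM in male controls against 0.583, 3 and 4.66 CPM. Male 6-week replicate 1 lay below its controls and the other two above, and without it the male log2 change was 1.34 (adjusted p = 0.0021, limma). *Sult1a1*, a sulfotransferase, had a log2 change of −0.21 in males and −1.39 in females, *Otulinl* of 1.17 and 2.23, and *Rdh10*, an enzyme of retinoic acid synthesis, of 1.69 and 3.00. None passed the adjusted threshold for a difference between the sexes.

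The 6-week state was also set against 1 week after induction, with 4 libraries at 1 week in each sex. By limma, with the adjusted p threshold of 0.05 and no minimum change, 22 genes were higher at 6 weeks than at 1 week in males (0.13%) and 6 lower (0.0354%). In females 151 were higher (0.891%) and 24 lower (0.142%). The male total of 28 ran from 2 to 136 when single libraries were left out, lowest without male 6-week replicate 4 and highest without male 6-week replicate 1. In both sexes 18 genes were higher and 1 was lower. *F5*, coagulation factor V, read 0.402, 0.83, 1.06 and 0.674 CPM at 1 week against 3.98, 4.91 and 7.16 CPM at 6 weeks in males, and 0.889, 1.12, 0.92 and 0.954 CPM against 3.77, 4.04, 7.27 and 2.4 CPM in females. *Efemp1*, the matrix protein fibulin-3, read 9.94, 16.1, 16.8 and 10 CPM against 40, 48.1 and 30.2 CPM in males, and 16.1 to 18.7 CPM against 41.1 to 69.3 CPM in females. *Tnfsf13b*, the B cell survival factor BAFF, was higher by 1.30 and 2.00, and *Wfikkn2*, a binding protein of TGFβ family members, by 1.33 and 1.55. The gene that was lower was *Adamtsl2*, at 38.1 to 48.6 CPM at 1 week in males and 32.3 to 48.5 CPM in females, so male 1-week hearts lay above both the male controls and the 6-week hearts. Of the 10 genes with the smallest p in this comparison, 5 belonged to MHC class II presentation: *H2-Aa*, *Cd74*, *H2-Eb1*, *H2-DMb1* and *Ciita*.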

How the data were processed

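RNA was sequenced from hearts of male and female mice with a directional polyA kit. STAR alignments to GRCm39 were summarised per gene by featureCounts, whose strand setting is not given in the sources used here. The authors deposited 1 CPM table for each sex, made with edgeR after scaling by library. For males 17646 and for females 17223 genes are listed, 17038 of them in both. Rows without a gene name, 29 and 24 of these, were kept under their gene identifier. Column sums of 817395 to 1196278 differ from those of unscaled CPM, so the deposited CPM signal holds the scaling factors. All values (100%) lay within 0.001 of a whole read after division by the value of 1 read, so reads could be recovered. Libraries in the compared groups held 27258449 to 65333832 reads in males and 20806844 to 27782988 in females, and limits set from 3 reads cover counting error only.

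Values were tested as log2(CPM + 0.5) with limma 3.58.1 in R 4.3.3, in 1 fit per sex over all groups of that sex and a joint fit for the difference between sexes, for genes at 0.5 CPM or more in at least 3 libraries. Adjusted p-values are by Benjamini and Hochberg over all genes tested, and a call needs an adjusted p under 0.05 and a log2 change of at least 1, except for gene lists and for the comparison with 1 week, where the adjusted p alone was used. The limma fit within each sex was tested on simulated counts. Python 3.11.15, pandas 2.3.3 and numpy 2.4.6 made the summaries. Alternatives were pseudocounts of 0.1 and 2, other filters and minimum changes, unscaled CPM (reads over the library total), median-of-ratios scaling, a fit of the 2 groups alone, a replicate block, each library left out, and edgeR 4.0.16 and DESeq2 1.42.0 on the recovered reads. On those reads edgeR called 2024 genes in males and 2658 in females, and DESeq2 2044 and 2689.

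Any gene of the 41 lists could be named. Other named genes were those with the largest change in both sexes with non-overlapping groups (12 risen, 15 fallen, with at least 5 CPM), the 10 smallest p for a sex difference and 10 for the comparison of 6 weeks with 1 week. The 10 largest rises and falls in CPM were named too, taken among genes with an adjusted p under 0.05 in both sexes. Members and lists were chosen with earlier results of these data known. Each library is a separate mouse, and the labels name no batch. Another 2 male libraries have labels that contradict each other and entered no comparison. Positions are those of GRCm39, and promoter sequences come from a RefSeq table of GRCm38.p6. Some members of the lists are not reported here.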

Additional observations from a re-analysis of the deposited data

Results flagged for a closer look

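In 148 sets of 1 gene in the 4 female control or the 4 female libraries at 6 weeks (74 genes), 8 held a library whose gap to its nearest fellow exceeded Dixon's critical value, and chance gives about 1 in 20. At 6 weeks these were *Abca8a* at 21.4 CPM and *Dbp* at 118 CPM in replicate 4, *Kdr* at 118.5 CPM and *Lyve1* at 53.8 CPM in replicate 3, *Nppa* at 818 CPM in replicate 2, and *Tgfbr3l* at 1.07 CPM and *Hif3a* at 1.31 CPM in replicate 1. Each was the highest of its group. Among female controls, *Nppb* stood at 105 CPM in replicate 1. *Tgfbr3l* and *Hif3a* were also among the genes with the smallest p for a difference between the sexes.

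The 2 male libraries with contradictory labels entered no comparison. *Il11* stood at 0.597 CPM in one and at 511 CPM in the other, against at most 0.166 CPM in any control used here. *Mylk4* stood at 201 and 15.3 CPM and *Serpina3n* at 4.66 and 1559 CPM in the same order.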

How the results depend on the processing

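Called genes numbered 1439 in males, 1986 in females and 1092 in both. With a pseudocount of 2 they were 835, 1132 and 657, without a minimum log2 change 4580, 7245 and 3297, and with a minimum of 2 they were 299, 467 and 261. Leaving out 1 library gave 1306 to 1569, 1796 to 2243 and 1026 to 1152. Genes whose change differed between the sexes numbered 0, or 3 with a pseudocount of 2, 106 with DESeq2 and 0 to 406 with 1 library left out. Genes that differed between 6 weeks and 1 week numbered 28 in males, or 14 with a pseudocount of 0.1, 46 with 2, 207 with DESeq2 and 2 to 136 with 1 library left out. In females they numbered 175, or 305 with DESeq2 and 97 to 368 with 1 library left out, highest without 1-week replicate 2 and lowest without 1-week replicate 4. Correlations of deviations between 6-week and control libraries of the same replicate number ran from −0.0331 to 0.0896 in males and from −0.0378 to 0.238 in females. For different numbers they ran from −0.147 to 0.0737 and from −0.161 to 0.127. Whether the replicate numbers pair the samples cannot be told from these values. With a replicate block, 6 genes differed between the sexes and 13 between 6 weeks and 1 week in males, the male calls of *Slc25a4* (adjusted p = 0.0584) and *Gpihbp1* (adjusted p = 0.0665) were lost, and *Nppa* and *Nppb* in males (adjusted p = 0.0204 and 0.036) and *Ppargc1a* in females (adjusted p = 0.0447, limma) passed.

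On unscaled CPM 6 female lists that had more falls than rises came to hold more rises, with falls left in 1 gene for calcium handling, 0 for the intercalated disc, 1 for transcription factors, 4 for glycolysis, 1 for pericytes and 2 for muscle atrophy. Of the values of single genes recomputed, 2433 kept direction and side of the threshold, 24 passed it newly and 57 no longer passed, and none changed direction while called. Of list counts, 1173 stayed within 1.5 times. The cause of these shifts was not tested. Groups of 3 males cannot give an exact p below 0.1. The counts without both libraries that stand apart were chosen after seeing the data.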

Other observations

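Of 16 genes of the circadian clock and its outputs, 9 fell in females and 1 in males, and 0 rose, and no gene passed the test of a difference between the sexes. On unscaled CPM 6 fell and 3 rose in females. *Per2*, a clock repressor, read 45.5, 39.2, 11.4 and 17.5 CPM in female controls against 5.31, 2.83, 5.9 and 10.2 CPM at 6 weeks, with no overlap (adjusted p = 0.00387, limma). In male 6-week replicates 1, 3 and 4 it read 3.67, 16.4 and 52.1 CPM, on both sides of the controls at 19.7 to 31.5 CPM. *Hlf*, a transcription factor driven by the clock, fell in both sexes (−1.64 and −2.18). *Dbp*, another such factor, spread from 19.2 to 130 CPM among female controls. Without male 6-week replicate 4 the male list had 6 falls, and without any of male control replicates 3 and 4 or male 6-week replicate 1 it had 0. Time of day at collection is not given in the sources used here.

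Markers of lymphocytes were low but higher at 6 weeks. *Cd4* read 1.16, 0.833 and 1.68 CPM in male controls against 6.48, 5.51 and 7.16 CPM, and 1.02 to 1.7 CPM in female controls against 5.33 to 11.4 CPM. Of T cell and NK cell genes 2 of 7 rose in males and 6 of 9 in females, with a male count of 1 without male control replicate 1 or 3 or male 6-week replicate 3 or 4. Of B cell and plasma cell genes 6 of 9 rose in males, and 5 of 11 rose and 1 fell in females. *Igkc*, an antibody light chain, read 20.8, 2.51 and 5.29 CPM in male 6-week hearts and 6.5, 30.9, 6.67 and 32.5 CPM in female ones, against at most 1.64 CPM in controls, so it varied widely between mice. Of 4 neutrophil genes 2 rose in each sex.

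*Tubb3*, a neuronal tubulin, read 0.412 to 0.795 CPM in male controls against 6.29 to 9.54 CPM, and 0.499 to 1.03 CPM in female controls against 5.67 to 12.7 CPM, while 1 of 6 Schwann cell and neuronal markers rose in males and 2 of 7 in females. *Dkk3*, on the list of atrial markers, rose in both sexes (2.38 and 2.98), and its highest value, 83.4 CPM, was in the female library with atrial transcripts. Of the atrial markers 1 of 4 rose in males and 2 of 5 in females, or 1 without that library. Of 11 transcription factors and markers of mesenchymal transition 5 rose in males and 6 in females. The members higher in both were *Fn1*, *S100a4*, *Snai1*, *Twist1* and *Vim* (2.26-fold and 2.45-fold for *Vim*). Of cell cycle genes 0 of 17 passed in males and 6 of 18 rose in females, or 13 on unscaled CPM, with *Top2a* at 2.5 to 3.93 CPM in female controls against 4.38 to 8.99 CPM. Of 10 genes of muscle atrophy 1 rose in males, or 0 without control replicate 4, and 3 fell in females, and the ubiquitin ligases *Fbxo32* and *Trim63* did not pass in either sex (adjusted p = 0.0501 to 0.891, limma). Of 14 immediate early genes 2 rose in males, or 1 without control replicate 4 or 6-week replicate 4, and 3 rose in females, or 5 on unscaled CPM. Of all genes tested, 16.2% rose in males and 21.7% in females, and 10.9% and 21% fell. No erythroid or adipose marker passed in either sex (adjusted p under 0.05, limma), and no gene linked to the X or Y chromosome on the sex list did.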
